A study of Mus musculus with 7 samples.

Results

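The G1 cyclins and their kinases are 8 genes, chosen by symbol from the 32286 features counted in each library: the D-type cyclins Ccnd1, Ccnd2 and Ccnd3, the E-type cyclins Ccne1 and Ccne2, and the cyclin-dependent kinases Cdk2, Cdk4 and Cdk6. Their transcripts were counted by single-cell RNA sequencing (10x 3′ v3) in mouse thymocytes sorted into 7 groups, with 1 library per group. All libraries came from C57BL/6 mice and each was spiked with 500 splenic B cells. Double-negative (DN) thymocytes lack CD4 and CD8, and pass from DN3a, before selection by a T cell receptor (TCR), to DN3b and DN4.

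The 5 WT libraries came from pooled thymi of male and female mice of 6 to 8 weeks, from which CD4+ and CD8+ cells had been removed with magnetic beads. They were DN3a, DN3b γδ−, DN3b γδ+, DN4 γδ− and DN4 γδ+, where γδ− and γδ+ tell whether a γδ TCR was on the surface. The DN3b γδ− and DN4 γδ− cells had been sorted as CD71+, the transferrin receptor of dividing cells, and the same marker set WT DN3a apart from DN3b γδ− in the other direction, so that the sort itself selected for cycling in the γδ− groups and against it in WT DN3a. The γδ+ cells were sorted as TCRδ+ CD3+ CD24+ CD44low, with no CD71 gate given. The γδ− groups are precursors of αβ T cells, selected by the pre-TCR. The 2 Lat-KO libraries, DN3 γδ− and DN3 γδint (intermediate surface γδ TCR), were sorted from total pooled thymocytes of mice with the genotype Lat-/- TCRd-H2BEGFP. These mice lack LAT, an adaptor that relays TCR signals, and carry a green fluorescent reporter in the TCR δ gene that the WT mice lack. Their age is not given in the sources used here. Genotype, reporter and bead depletion differed together between the WT and Lat-KO libraries and cannot be told apart. The CD71 gate of WT DN3a differed as well, since none is given for the Lat-KO cells. The paper found CD71 on part of the Lat-KO DN3 γδint cells.

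D-type cyclins bind CDK4 and CDK6 in response to growth signals, and the complexes phosphorylate the retinoblastoma protein and its relatives, which frees E2F factors to switch on genes of DNA replication. Among the E2F targets are the E-type cyclins, which bind CDK2 and drive the entry into S phase. Genetic work in mice tied cyclin D3 and CDK6 in particular to the expansion of immature thymocytes.

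Thymocyte barcodes, those with at most 1 UMI (a tag on a single transcript molecule) of the B cell genes Cd79a, Cd79b and Ms4a1 together, numbered from 5274 in Lat-KO DN3 γδint to 18515 in WT DN3b γδ−, with a median of 5738 to 18506 UMIs each. All 8 T cell markers were detected in every library and summed to 2781 to 10598 CPM (UMIs scaled to the same total in each library). In barcodes of the spiked B cells (B barcodes) they summed to 354 CPM (Lat-KO DN3 γδ−) to 770 CPM (Lat-KO DN3 γδint). These barcodes therefore also held T cell transcripts. The 6 B cell markers summed to at most 66.8 CPM, of which Cd79b gave 8.65 to 49.3 CPM, the 7 myeloid markers to at most 48.8 CPM, and the 5 erythroid markers to at most 170 CPM, in WT DN4 γδ−. Of the 3 NK markers, which summed to at most 0.0919 CPM elsewhere, Klre1 stood at 7.20 CPM and Klrb1c at 0.329 CPM in WT DN4 γδ+, while Ncr1 was at 0 in every library. Of the 2 plasmacytoid markers, Bst2 stood at 107.6 (WT DN4 γδ+) to 547.8 CPM (WT DN3a) and Siglech at most at 0.0793 CPM. The part of such cells in the results was not tested. Lat stood at 357 to 648 CPM in the 5 WT libraries and at 4.83 and 0.899 CPM in the 2 Lat-KO libraries, as their labels say. Il2ra, which encodes CD25, stood at 619.97 CPM in WT DN3a and at 12.1 and 4.25 CPM in the 2 DN4 libraries. Of 89086 distinct barcodes, 925 occurred in more than 1 library. Cell cycle phases were called from scores over other genes, in barcodes of at least 4000 UMIs. Barcodes low in both an S and a G2M score were called G1, a call that does not separate resting cells from cells in G1. The share called S or G2M was 9.07% for WT DN3a, 96.3% for WT DN3b γδ−, 94.5% for WT DN4 γδ−, 92.6% for WT DN3b γδ+, 21.8% for WT DN4 γδ+, 9.76% for Lat-KO DN3 γδ− and 37.3% for Lat-KO DN3 γδint. The 95% intervals given below cover counting error only, and levels are scaled by totals. TMM factors, another scaling, were 1.40 for Lat-KO DN3 γδint and 0.816 to 1.18 for the other libraries. The rank of Lat-KO DN3 γδint among the libraries can therefore depend on the scaling. With 1 library per group no difference between groups was tested, and library and group cannot be told apart. All 8 genes overlap a gene on the opposite strand apart from Ccne1, and the 3′ libraries keep strand.

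Among the D-type cyclins, Ccnd2 and Ccnd3 carried nearly all UMIs, and Ccnd1 reached at most 3.88 CPM. Ccnd2 (chr6:127125162-127152193, mm10) encodes cyclin D2, a cyclin induced by cytokine and antigen receptor signals in lymphocytes. Its level was 309 CPM in WT DN3a, 124 CPM in WT DN3b γδ−, 54.9 CPM in WT DN4 γδ−, 191 CPM in WT DN3b γδ+, 262 CPM in WT DN4 γδ+, 349.5 CPM in Lat-KO DN3 γδ− and 330.2 CPM in Lat-KO DN3 γδint. Ccnd2 was thus low along the γδ− path and high before selection, without LAT and in WT DN4 γδ+. No 2 neighbours in this order had overlapping intervals, the widest of which reached 1.77% above its value.

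Ccnd3 (chr17:47505051-47599691) encodes cyclin D3, which pre-TCR-driven thymocyte expansion needs. Its level was 133 CPM in WT DN3a, 309 CPM in WT DN3b γδ−, 222 CPM in WT DN4 γδ−, 161 CPM in WT DN3b γδ+, 179.8 CPM in WT DN4 γδ+, 163 CPM in Lat-KO DN3 γδ− and 159.9 CPM in Lat-KO DN3 γδint. Scaled by totals, the 2 γδ− libraries after selection were the highest and WT DN3a the lowest. Lat-KO DN3 γδ−, WT DN3b γδ+ and Lat-KO DN3 γδint could not be ordered, since their intervals overlapped (159 to 166, 159 to 163 and 156 to 164 CPM).

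Ccnd1 (chr7:144929931-144939925) encodes cyclin D1, the D-type cyclin of most epithelial and mesenchymal cells. Its level was 2.35 CPM in WT DN3a, 0.691 CPM in WT DN3b γδ−, 1.55 CPM in WT DN4 γδ−, 3.88 CPM in WT DN3b γδ+, 1.59 CPM in WT DN4 γδ+, 1.07 CPM in Lat-KO DN3 γδ− and 1.82 CPM in Lat-KO DN3 γδint. The highest value, 3.88 CPM (3.60 to 4.16), rested on 759 UMIs in 562 of 12361 barcodes, of which 424 had a single UMI. In WT DN4 γδ−, 8 barcodes with at least 5 Ccnd1 UMIs held 84 of the 377 UMIs. These 8 barcodes had a median of 1 UMI of the CD3 genes, against 27 over all thymocyte barcodes of that library, so that part of the Ccnd1 signal there came from barcodes with few T cell transcripts. Barcodes called G1 there held 19.8 CPM of Ccnd1, against 1.12 CPM in those called S or G2M. With every barcode thinned to 2000 UMIs, the share with Ccnd1 was 0.195% to 0.835% in thymocyte barcodes. It was 0.870% in the B barcodes of WT DN4 γδ− and 0 in those of the other 6 libraries. There 3 counts would be a share of 1.37% to 2.54%, above every thymocyte share. The B barcodes could therefore not decide whether Ccnd1 was above background in thymocytes. In WT DN3b γδ+, 4 barcodes with at least 5 Ccnd1 UMIs had a median of 54.5 CD3 UMIs, against 39 over all its thymocyte barcodes. Ccnd1 stood there at 5.31 CPM in S and 1.18 CPM in G2M barcodes.

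**Figure D1:**
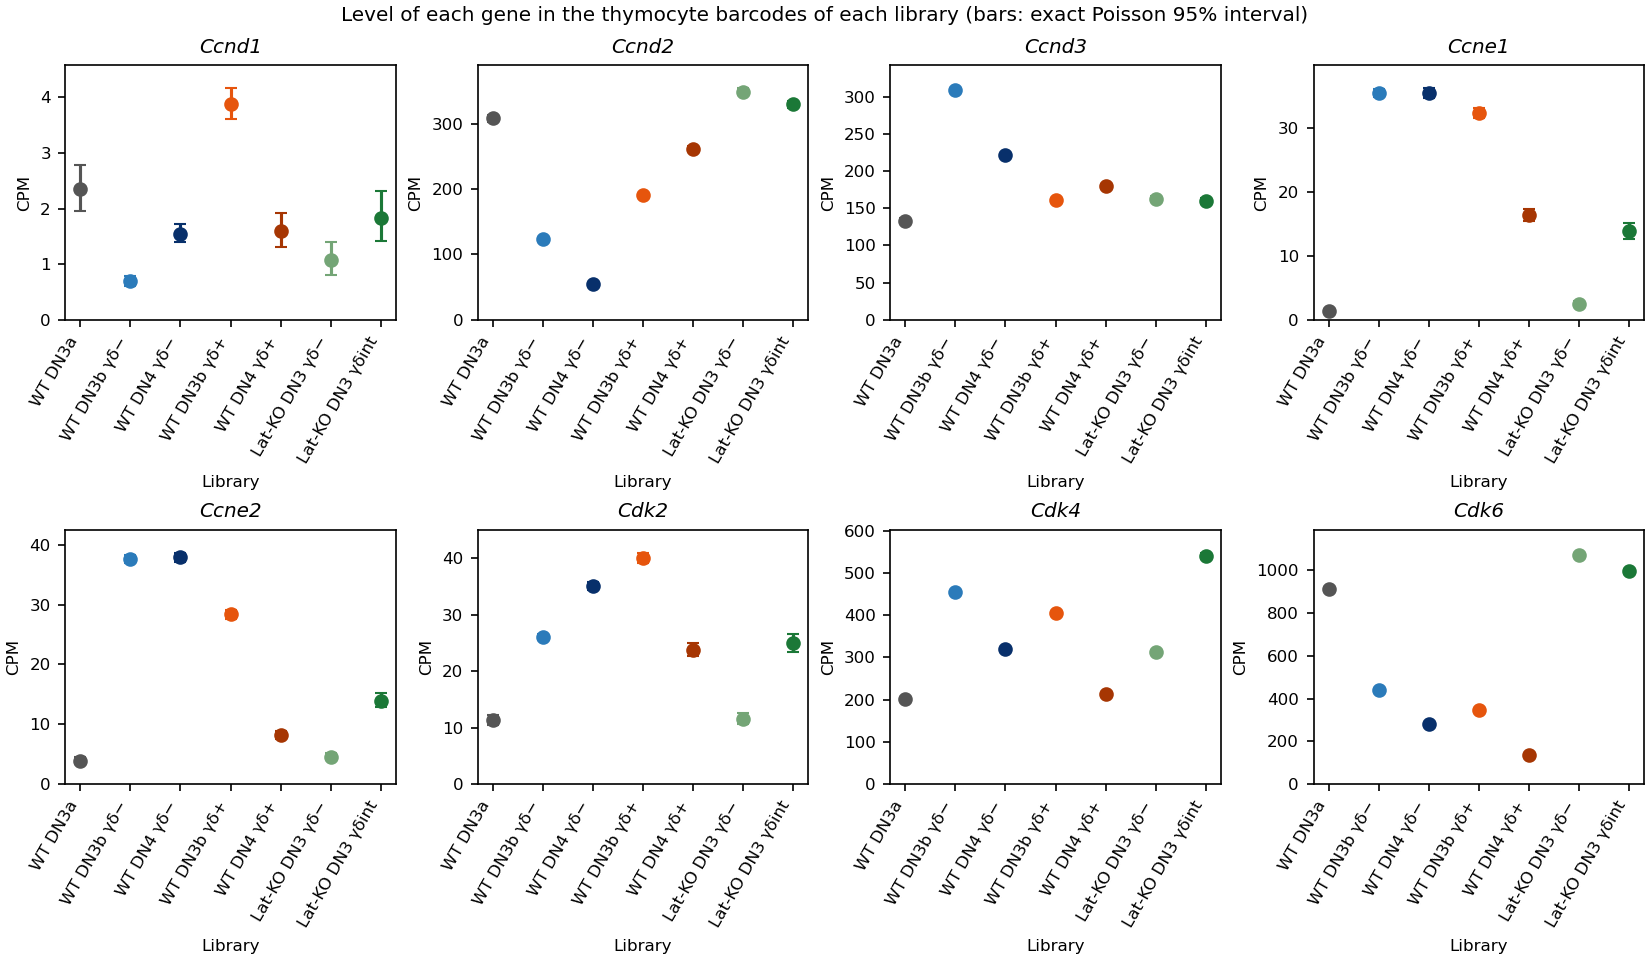
Level in CPM of each of the 8 genes in the thymocyte barcodes of the 7 libraries. Points are single libraries, 1 per group, bars are exact Poisson 95% intervals that cover counting error only, and each axis starts at 0. Scaled by totals, Ccnd2 and Cdk6 were highest in WT DN3a and the Lat-KO libraries, whereas Ccne1 and Ccne2 were highest in the 3 libraries where most barcodes were called S or G2M, at 28.4 to 37.9 CPM.

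The share of each cyclin among all cyclin D UMIs does not depend on how libraries are scaled, and gives the balance of Ccnd2 and Ccnd3. A change in share does not need levels that move in opposite directions. Ccnd2 (124 and 54.9 CPM) and Ccnd3 (309 and 222 CPM) were both lower in WT DN4 γδ− than in WT DN3b γδ−. Ccnd3 took 29.97% (29.4 to 30.6, exact Clopper-Pearson) of cyclin D UMIs in WT DN3a, 71.3% (71.1 to 71.6) for WT DN3b γδ− and, highest of all, 79.7% (79.4 to 80.0) for WT DN4 γδ−. In the γδ+ libraries it took 45.2% (44.8 to 45.6) at DN3b and 40.5% (40.0 to 41.1) at DN4. In the Lat-KO libraries it took 31.7% (31.2 to 32.3) in DN3 γδ− and 32.5% (31.8 to 33.2) in DN3 γδint, whose intervals overlapped. Ccnd3 therefore took most cyclin D UMIs over all barcodes of the 2 selected γδ− libraries, and Ccnd2 in the other 5. The 3′ counts of different genes are not scaled by length and may differ in capture, so a share is compared across libraries and is not a ratio of transcripts in the cell.

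The 2 γδ− libraries after selection had the highest Ccnd3 shares within both sets of cell cycle phases too. Among barcodes called S or G2M, the Ccnd3 share was 71.8% for WT DN3b γδ− and as much as 80.5% for WT DN4 γδ−, against 45.7% for WT DN3b γδ+, 45.5% for WT DN4 γδ+, 35.8% for WT DN3a, 36.4% for Lat-KO DN3 γδ− and 40.3% for Lat-KO DN3 γδint. Among barcodes called G1, it was 43.7% (41.5 to 46.0) and 49.6% (47.2 to 52.1) for WT DN3b γδ− and DN4 γδ−, and 26.9% to 38.5% in the other 5 libraries. In S or G2M barcodes the intervals of WT DN3b γδ+ and DN4 γδ+ overlapped, as did those of Lat-KO DN3 γδ− and WT DN3a. In G1 the order of these 5 was another, since WT DN4 γδ+ was above WT DN3b γδ+ (32.96%) and Lat-KO DN3 γδint was the lowest. The difference in share between the γδ− and γδ+ libraries was thus present in both sets of barcodes and smaller in G1. In barcodes called G1, which can hold resting cells, the Ccnd3 level was highest in WT DN4 γδ+, at 202 CPM. It was 154 CPM in WT DN3b γδ− and 150 CPM in WT DN4 γδ−. Ccnd2 stood there at 322, 197 and 132 CPM in the same order. In the B barcodes the Ccnd3 share ranged from 35.5% (27.0 to 44.8) for Lat-KO DN3 γδint to 69.2% (58.7 to 78.5) for WT DN4 γδ−. That spread in barcodes called B cells moved partly with the thymocytes, and its part in the result was not tested. T cell markers summed to 770 CPM in the B barcodes of Lat-KO DN3 γδint and to 655 CPM in those of WT DN4 γδ−. The part of thymocyte transcripts in these B shares was not tested.

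Ccnd2 and Ccnd3 were not exclusive of each other in single barcodes. With each barcode thinned to 4000 UMIs, Ccnd2 was detected in 65.6% of barcodes in WT DN3a, 38.2% for WT DN3b γδ−, 19.1% for WT DN4 γδ−, 46.5% for WT DN3b γδ+ and 57.3% of those from WT DN4 γδ+. At all UMIs the same shares were 81.0%, 78.8%, 52.2%, 73.2% and 65.4%. For Ccnd3 the thinned shares in this order were 40.1%, 64.9%, 54.0%, 45.4% and 52.7%, and the shares at all UMIs were 59.0%, 91.4%, 85.4%, 79.2% and 66.3%. Thinning mattered since the WT DN4 γδ+ barcodes were shallow, and their Ccnd3 share passed that of WT DN3b γδ+ only at equal depth. Both transcripts together were found in 26.9% of thinned barcodes in WT DN3a, 24.4% for WT DN3b γδ−, 9.84% for WT DN4 γδ−, 20.6% for WT DN3b γδ+, 31.2% for WT DN4 γδ+, 33.1% for Lat-KO DN3 γδ− and 30.99% for Lat-KO DN3 γδint. Divided by the product of the single shares, these gave 0.952 (WT DN4 γδ−) to 1.03 (WT DN4 γδ+) over the 7 libraries, close to what independent detection gives. At 2000 UMIs the range was 0.895 (WT DN4 γδ−) to 1.05 (WT DN4 γδ+). In WT DN4 γδ− both were then found in 3.30% (2.99 to 3.64), below the 3.69% that independent detection gives. B barcodes, which express both genes, showed Ccnd2 in 13.6% to 23.2% and Ccnd3 in 22.0% to 41.0% at a median of 2421 to 3694 UMIs.

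The E-type cyclins differed most between libraries. Ccne1 (chr7:38097984-38107534) encodes cyclin E1, which activates CDK2 at the start of S phase. Its level was 1.30 CPM in WT DN3a, 35.5 CPM in WT DN3b γδ−, 35.5 CPM in WT DN4 γδ−, 32.5 CPM in WT DN3b γδ+, 16.4 CPM in WT DN4 γδ+, 2.52 CPM in Lat-KO DN3 γδ− and 13.9 CPM in Lat-KO DN3 γδint. The intervals of WT DN3b γδ− and DN4 γδ− overlapped.

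Ccne2 (chr4:11191351-11204779) encodes cyclin E2, a second partner of CDK2. Its level was 3.87 CPM in WT DN3a, 37.7 CPM in WT DN3b γδ−, 37.9 CPM in WT DN4 γδ−, 28.4 CPM in WT DN3b γδ+, 8.21 CPM in WT DN4 γδ+, 4.51 CPM in Lat-KO DN3 γδ− and 14.0 CPM in Lat-KO DN3 γδint. The order was that of Ccne1 apart from WT DN4 γδ+, which was above Lat-KO DN3 γδint for Ccne1 and below it for Ccne2. WT DN3b γδ− and DN4 γδ−, and WT DN3a and Lat-KO DN3 γδ−, did not differ beyond their intervals. In barcodes thinned to 4000 UMIs, Ccne1 was detected in 0.387% (WT DN3a) to 12.7% (WT DN4 γδ−) and Ccne2 in 0.851% to 14.2% of the same libraries. At 2000 UMIs, the Ccne1 share was 0.180% for WT DN3a and 0.346% for Lat-KO DN3 γδ−. Neither was above the share in the B barcodes there, 0.847% and 1.13%. Those B barcodes held 1 and 3 Ccne1 UMIs at full depth, too few to set a background level. In WT DN3a, Ccne1 stood at 8.16 CPM in barcodes called S and 0.265 CPM in those called G1. In Lat-KO DN3 γδ− these levels were 17.7 and 0.294 CPM. The Ccne1 ratios against these 2 libraries, given below, rest on 70 and 127 UMIs in them.

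Cdk2 (chr10:128697939-128705031) encodes the kinase that cyclin E activates. Its level was 11.3 CPM in WT DN3a, 26.0 CPM in WT DN3b γδ−, 35.04 CPM in WT DN4 γδ−, 40.1 CPM in WT DN3b γδ+, 23.8 CPM in WT DN4 γδ+, 11.5 CPM in Lat-KO DN3 γδ− and 25.0 CPM in Lat-KO DN3 γδint. Unlike the E-type cyclins it was highest in WT DN3b γδ+. WT DN3a and Lat-KO DN3 γδ− did not differ beyond their intervals, nor did WT DN3b γδ− and Lat-KO DN3 γδint, or Lat-KO DN3 γδint and WT DN4 γδ+. RefSeq promoters (GRCm38.p6) were found for 5 of the 8 genes, namely Ccnd3, Ccne1, Cdk2, Cdk4 and Cdk6, over the 250 bases before and 50 after the start. That of Cdk2 (chr10:128705002-128705301, minus strand) is shown because it alone among them held letters of the E2F type. These were searched as TTCCCGC or TTCGCGC or TTGCCGC or TTGGCGC on both strands, which 9.57% of 32851 promoters held, and 1.18% at 2 or more places. Capitals mark the 3 matches, which start at positions -140, -10 and 40 from the transcript start.
Cdk2: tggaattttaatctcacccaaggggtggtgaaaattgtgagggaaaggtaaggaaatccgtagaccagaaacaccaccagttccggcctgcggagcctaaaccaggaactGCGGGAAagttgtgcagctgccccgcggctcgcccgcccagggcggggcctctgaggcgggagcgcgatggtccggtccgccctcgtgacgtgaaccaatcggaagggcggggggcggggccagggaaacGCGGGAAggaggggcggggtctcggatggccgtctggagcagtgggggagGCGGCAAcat
A match of letters is a description and not a site of binding, and its absence from the other windows says nothing about E2F factors there.

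The kinases of the D-type cyclins went opposite ways from WT DN3a to the DN3b libraries, and both were lower at DN4 than at DN3b. Cdk4 (chr10:127063534-127067920) encodes the kinase CDK4, which is expressed in most dividing cells. Its level was 201 CPM in WT DN3a, 455 CPM in WT DN3b γδ−, 320.3 CPM in WT DN4 γδ−, 405 CPM in WT DN3b γδ+, 213 CPM in WT DN4 γδ+, 312 CPM in Lat-KO DN3 γδ− and 541 CPM in Lat-KO DN3 γδint. In B barcodes it ranged from 51.4 CPM in WT DN3a to 162 CPM in Lat-KO DN3 γδint. Scaled by totals, Lat-KO DN3 γδint was thus the highest of the 7 and WT DN3a the lowest in thymocyte and in B barcodes. No neighbours in the order of the thymocytes had overlapping intervals. With TMM factors Lat-KO DN3 γδint was not the highest, since its Cdk4 log2 ratio over WT DN3b γδ+ was then -0.33. In the B barcodes the intervals of the highest and of the lowest library overlapped those of their neighbours.

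Cdk6 (chr5:3341485-3531008) encodes CDK6, a kinase with a leading role in blood cells. Its level was 912 CPM in WT DN3a, 441 CPM in WT DN3b γδ−, 283 CPM in WT DN4 γδ−, 349 CPM in WT DN3b γδ+, 134 CPM in WT DN4 γδ+, 1074 CPM in Lat-KO DN3 γδ− and 995 CPM in Lat-KO DN3 γδint. The 3 unselected or LAT-deficient libraries were above all others, 8.03-fold separated the extremes, and no neighbours overlapped. Cdk6 was detected in 94.2% of barcodes of WT DN3a, 80.2% of WT DN3b γδ−, 63.3% of WT DN4 γδ−, 71.1% of WT DN3b γδ+, 32.7% of WT DN4 γδ+, 96.1% of Lat-KO DN3 γδ− and 95.1% of Lat-KO DN3 γδint at 4000 UMIs. At all UMIs these shares were 97.9%, 97.4%, 89.3%, 90.1%, 44.4%, 99.0% and 97.6%, and the B barcodes showed 9.15% to 32.6%. In B barcodes the level of Cdk6 ranged from 23.3 CPM in WT DN4 γδ+ to 139 CPM in Lat-KO DN3 γδint, so that the lowest library was the same in B cells and thymocytes. The part of free RNA in these levels was not tested.

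Of the UMIs of both kinases, Cdk6 took 81.9% (81.6 to 82.2) for WT DN3a, 49.2% (49.1 to 49.4) for WT DN3b γδ−, 46.9% (46.6 to 47.1) for WT DN4 γδ−, 46.2% (46.0 to 46.5) for WT DN3b γδ+ and 38.5% (37.9 to 39.2) for WT DN4 γδ+. The Lat-KO libraries kept more, since in DN3 γδ− it took 77.5% (77.2 to 77.8) and in DN3 γδint 64.8% (64.4 to 65.2). In contrast to the cyclin D share, the kinase share was close in WT DN3b γδ− and DN3b γδ+, and set all selected WT libraries below WT DN3a. Restricting the barcodes to those called G1 gave 84.2% for WT DN3a, 62.8% for WT DN3b γδ−, 59.3% for WT DN4 γδ−, 58.0% for WT DN3b γδ+, 80.3% for Lat-KO DN3 γδ−, 73.6% for Lat-KO DN3 γδint and 38.5% for WT DN4 γδ+. In barcodes called S or G2M the shares were 65.6%, 48.9%, 46.5%, 45.8%, 58.9%, 53.5% and 38.2% in the same order.

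The promoters of both kinases are shown because their transcripts moved apart between WT DN3a and the DN3b libraries and each holds the E-box CACGTG (capitals), a palindrome bound by MYC and other factors of its class. Cdk4 (chr10:127063285-127063584, plus strand) held 4 copies, which start at -172, -118, -98 and -11 from the transcript start, and Cdk6 (chr5:3343643-3343942, plus strand) held 1, at -220.
Cdk4: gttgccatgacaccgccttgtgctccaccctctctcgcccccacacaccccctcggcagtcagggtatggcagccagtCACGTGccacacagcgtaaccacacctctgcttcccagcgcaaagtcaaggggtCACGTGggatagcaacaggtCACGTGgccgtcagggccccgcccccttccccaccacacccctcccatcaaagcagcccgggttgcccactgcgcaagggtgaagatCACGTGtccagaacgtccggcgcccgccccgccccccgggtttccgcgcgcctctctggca
Cdk6: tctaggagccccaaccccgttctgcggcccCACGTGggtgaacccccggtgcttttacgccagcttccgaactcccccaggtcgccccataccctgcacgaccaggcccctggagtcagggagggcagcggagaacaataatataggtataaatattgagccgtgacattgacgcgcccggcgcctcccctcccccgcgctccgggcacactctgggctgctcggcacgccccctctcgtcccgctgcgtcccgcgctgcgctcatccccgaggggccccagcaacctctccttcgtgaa
At least 1 copy was found in 7.15% of the 32851 promoters and at least 4 copies in 8 of them. The promoters of Ccne1, Cdk2 and Ccnd3 (2 starts) held none. No entry was found for Ccnd1, Ccnd2 and Ccne2.

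**Figure D2:**
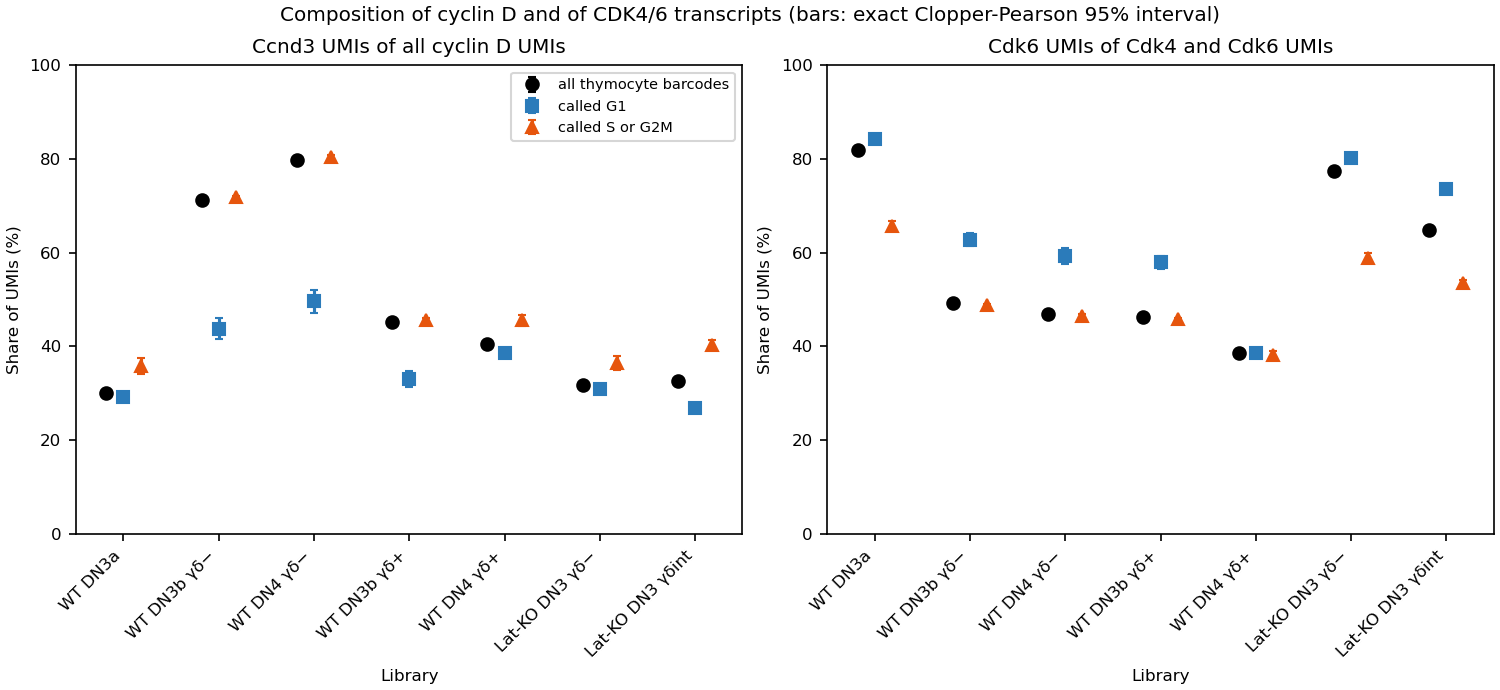
Share of Ccnd3 among cyclin D UMIs (left) and of Cdk6 among Cdk4 and Cdk6 UMIs (right), in percent, for each library over all thymocyte barcodes (circles), barcodes called G1 (squares) and barcodes called S or G2M (triangles). Bars are exact Clopper-Pearson 95% intervals for counting error. The Ccnd3 share was 71.3% and 79.7% for WT DN3b γδ− and DN4 γδ− and at most 45.2% in the other libraries over all barcodes, and the Cdk6 share was highest in WT DN3a and the Lat-KO libraries in all 3 sets.

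Which genes distinguished cells before and after selection was asked by setting WT DN3b γδ− and WT DN3b γδ+ against the same WT DN3a library, which both comparisons share. A gene counted as past 2-fold needed at least 10 CPM in either library. Between WT DN3b γδ− and WT DN3a, 5 genes were higher and 2 lower past 2-fold among the 7 at 10 CPM, where 10.4% and 16.3% of all 7894 genes were. The log2 ratio was 4.77 (4.43 to 5.13, exact conditional binomial) for Ccne1, 3.28 (3.09 to 3.49) for Ccne2, 1.22 (1.18 to 1.25) for Ccnd3, 1.21 (1.09 to 1.33) for Cdk2 and 1.18 (1.15 to 1.20) for Cdk4. It was -1.32 (-1.35 to -1.29) for Ccnd2 and -1.05 (-1.06 to -1.03) for Cdk6. The median of the 7 genes was 1.21, that of all genes -0.09. Scaling by TMM factors in place of totals added 0.36 to each log2 ratio, which left Ccnd2 at -0.96 and Cdk6 at -0.69. In the B barcodes Cdk4 had a log2 ratio of 1.32 (0.67 to 2.02), as large as in thymocytes, and its part in the Cdk4 result was not tested. T cell markers summed to 515 CPM in the B barcodes of WT DN3b γδ−, against 3241 CPM in its thymocytes. In WT DN3a these sums were 409 and 8146 CPM, and the part of thymocyte transcripts in the B ratio was not tested.

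Between WT DN3b γδ+ and WT DN3a, 4 genes were higher and 1 lower past 2-fold of 7, where 10.8% and 15.3% of all 7944 genes were. Ccne1 had a log2 ratio of 4.64 (4.30 to 5.00), Ccne2 of 2.87 (2.67 to 3.08), Cdk2 of 1.83 (1.71 to 1.95), Cdk4 of 1.01 (0.98 to 1.04) and Cdk6 of -1.39 (-1.40 to -1.37). Ccnd2 at -0.69 (-0.72 to -0.66) and Ccnd3 at 0.27 (0.24 to 0.31) stayed under 2-fold. Cdk4 was close to the limit and fell short of it, at 0.97, when barcodes with any B cell UMI were left out. Both comparisons therefore had the E-type cyclins, Cdk2 and Cdk4 higher and Cdk6 lower. TMM factors added 0.32 here. The B barcodes had a Cdk4 log2 ratio of 1.25 (0.55 to 1.98).

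Set directly against WT DN3b γδ−, WT DN3b γδ+ had none of 7 genes past 2-fold, where 5.14% of 7276 genes were higher and 2.28% lower. Ccnd3 was nearest to that limit, with a log2 ratio of -0.94 (-0.96 to -0.92). Ccnd2 stood at 0.63 (0.61 to 0.65), Cdk2 at 0.62 (0.58 to 0.67), Ccne2 at -0.41 (-0.46 to -0.36), Cdk6 at -0.34 (-0.35 to -0.33), Cdk4 at -0.17 (-0.18 to -0.15) and Ccne1 at -0.13 (-0.17 to -0.08). Ccnd1, under 10 CPM in both, stood at 2.49 (2.27 to 2.71). Over all barcodes, cyclin D composition thus differed more between these libraries than the E-type cyclins or the CDK4/6 kinases did. Of their barcodes with at least 4000 UMIs, 92.6% (WT DN3b γδ+) and 96.3% (WT DN3b γδ−) were called S or G2M.

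Within phases, too, none of the 7 genes at 10 CPM was past 2-fold between these libraries, where 5.48% of genes were higher and 4.74% lower in G1 barcodes, and 5.08% and 2.31% in S or G2M barcodes. Ccnd3 stood at -0.95 (-0.97 to -0.93) in the latter and at -0.15 (-0.28 to -0.01) in G1 barcodes. The E-type cyclins differed more in G1, with Ccne2 at -0.81 (-1.41 to -0.22) and Ccne1 at -0.68 (-1.25 to -0.11). Ccnd2 stood there at 0.48 (0.37 to 0.59) and Cdk6 at -0.45 (-0.52 to -0.38).

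Several of the differences from WT DN3a were smaller when barcodes of 1 phase set were compared, though not those of the E-type cyclins in G1. Among barcodes called S or G2M, WT DN3b γδ− over WT DN3a had 2 genes higher and 1 lower past 2-fold of 7, where 3.34% and 5.06% of 7398 genes were. Ccne1 stood at 2.26 (1.89 to 2.66), Ccnd3 at 1.03 (0.95 to 1.11) and Ccnd2 at -1.14 (-1.21 to -1.08). Ccne2 was at 0.80 (0.58 to 1.03), Cdk4 at 0.43 (0.37 to 0.48), Cdk6 was at -0.57 (-0.61 to -0.53), and Cdk2 was at -0.04 (-0.24 to 0.16), an interval that includes 0. The D-type cyclins therefore kept their distance within S and G2M, while Cdk2 was level. For WT DN3b γδ+ over WT DN3a in these barcodes, 1 gene was higher past 2-fold, Ccne1 at 2.15 (1.78 to 2.55), and none lower, where 5.18% and 5.13% of 7429 genes were. Ccne2 stood at 0.42 (0.20 to 0.65), Cdk2 at 0.59 (0.40 to 0.80), Cdk4 at 0.27 (0.21 to 0.32), Ccnd3 at 0.08 (-0.00 to 0.17) and Cdk6 at -0.91 (-0.95 to -0.87). The cycling part of WT DN3a was small, at 530 S and 56 G2M barcodes. WT DN3b γδ− had 9797 S and 7226 G2M barcodes, and WT DN3b γδ+ had 6818 and 3235, a different mix. In S barcodes alone Ccne2 stood at 22.1 CPM in WT DN3a. It stood there at 56.9 CPM in WT DN3b γδ−, past 2-fold, and at 38.6 CPM in WT DN3b γδ+, under it.

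Among barcodes called G1, WT DN3b γδ− over WT DN3a had 2 genes higher and none lower past 2-fold of 7, where 3.39% and 5.07% of 7791 genes were. They were Ccne1 at 5.37 (4.46 to 6.398) and Ccne2 at 3.76 (3.13 to 4.40). Cdk4 stood at 0.91 (0.84 to 0.99), Ccnd2 at -0.67 (-0.76 to -0.58), Cdk6 at -0.75 (-0.80 to -0.70), and Ccnd3 at 0.25 (0.15 to 0.36). G1 calls are the low end of 2 scores and not a cell type, and 170 barcodes of WT DN3a and 1857 of WT DN3b γδ− lay near a limit of the calls. WT DN3b γδ+ over WT DN3a in G1 had 1 higher and 1 lower of 5, where 6.62% and 8.42% of 7823 genes were, namely Cdk2 at 1.18 (0.89 to 1.46) and Cdk6 at -1.20 (-1.25 to -1.14), while Cdk4 stood at 0.76. Ccne1 at 4.69 (3.76 to 5.74) and Ccne2 at 2.95 (2.28 to 3.63) were under 10 CPM in both and not counted.

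**Figure D3:**
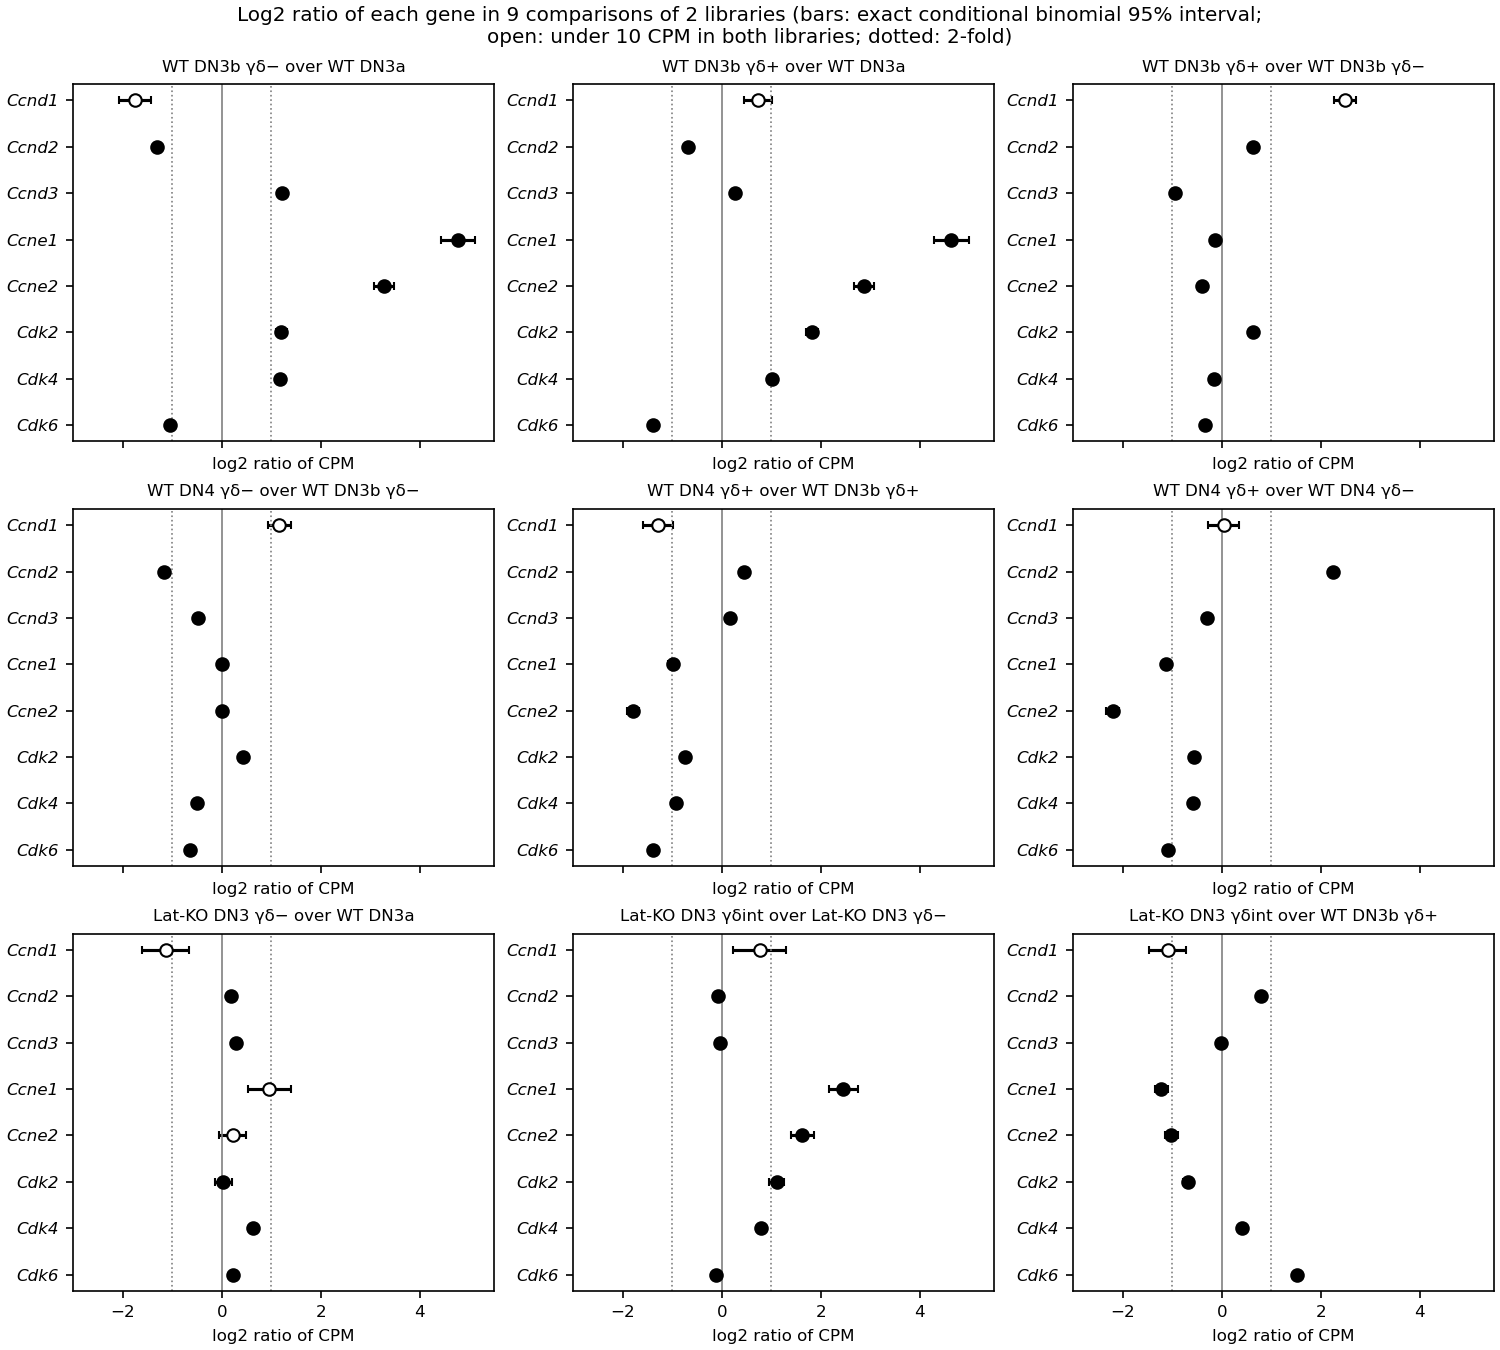
Log2 ratio of CPM of each of the 8 genes in the 9 comparisons of 2 libraries, with exact conditional binomial 95% intervals for counting error as bars, 0 as a solid line and 2-fold as dotted lines. Open points had under 10 CPM in both libraries. Ccne1 and Ccne2 lay farthest to the right in both comparisons of selected WT cells with WT DN3a, and Ccnd2 at 2.26 in WT DN4 γδ+ over WT DN4 γδ−.

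The step from DN3b to DN4 was compared on each path. WT DN4 γδ− over WT DN3b γδ− had 1 of 7 genes past 2-fold, Ccnd2 at -1.17 (-1.20 to -1.14), where 0.542% of 7016 genes were higher and 0.770% lower. Cdk6 stood at -0.64 (-0.66 to -0.63), Cdk4 at -0.51 (-0.52 to -0.49), Ccnd3 at -0.48 (-0.50 to -0.47) and Cdk2 at 0.43 (0.39 to 0.47). Ccne1 at 0.00 (-0.04 to 0.04) and Ccne2 at 0.01 (-0.03 to 0.05) were level. Ccnd2 was thus among the few genes past 2-fold between these similar libraries, and in barcodes called S or G2M it alone was past 2-fold, at -1.20 (-1.23 to -1.17), where 0.400% of genes were higher and 0.814% lower. In G1 barcodes it stood at -0.58 (-0.71 to -0.44), and 1 of 8 genes was past 2-fold, Ccnd1 at 3.93 (2.84 to 5.28), where 4.09% were higher and 1.86% lower. That ratio set 106 UMIs against 7, and the part in it of the 8 barcodes with few CD3 transcripts was not tested. The erythroid markers were higher in WT DN4 γδ− (169.6 against 24.9 CPM in sum), and leaving out barcodes with 10 or more erythroid and myeloid UMIs kept the count at 1.

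WT DN4 γδ+ over WT DN3b γδ+ had 2 genes lower past 2-fold and none higher, where 6.53% and 11.8% of 7766 genes were. Ccne2 stood at -1.79 (-1.92 to -1.67) and Cdk6 at -1.38 (-1.41 to -1.35). Ccne1 at -0.99 (-1.08 to -0.90) and Cdk4 at -0.93 (-0.95 to -0.90) were just under 2-fold, and Cdk2 at -0.75 (-0.83 to -0.68) was farther under it. With TMM factors, which took off 0.30, these 3 passed it, Cdk2 at -1.06. Ccnd2 stood at 0.46 (0.43 to 0.48). In barcodes called S or G2M none of 7 was past 2-fold, where 4.12% were higher and 1.26% lower. There Cdk6 stood at -0.94 (-0.99 to -0.90), Ccne2 at -0.56 (-0.69 to -0.43) and Ccne1 at 0.13 (0.03 to 0.23). In G1 barcodes Cdk6, at -2.003 (-2.07 to -1.93), was the 1 gene of 5 past 2-fold, where 8.22% of genes were higher and 8.07% lower. Cdk6 was thus lower in both sets. Ccne1 was lower over all barcodes and within those called G1, at -0.94 (-1.41 to -0.44), but not in S or G2M. Of the WT DN4 γδ+ barcodes with at least 4000 UMIs, 78.2% were called G1. In G1 Ccne2 was lower as well, at -2.83 (-3.52 to -2.16), and both E-type cyclins were under 10 CPM there and not counted. The B barcodes had a Cdk6 log2 ratio of -2.14 (-3.10 to -1.26), on 14 and 52 UMIs. Their Ccnd2 log2 ratio was 0.95 (0.36 to 1.57), with an interval that held the thymocyte ratio. Their Cdk4 log2 ratio was -0.95 (-1.57 to -0.34), close to that of the thymocytes. Of the 52 B barcodes of WT DN3b γδ+ with at least 4000 UMIs, 20 were called S or G2M. The part of mixed barcodes and free RNA in these values was not tested.

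At DN4, WT γδ+ over WT γδ− had 1 gene higher and 3 lower past 2-fold, where 19.7% and 8.16% of 7802 genes were. Ccnd2 stood at 2.26 (2.22 to 2.29), Ccne2 at -2.21 (-2.33 to -2.09), Ccne1 at -1.12 (-1.21 to -1.03) and Cdk6 at -1.08 (-1.11 to -1.05). In barcodes called S or G2M Ccnd2 alone was past 2-fold, at 1.62 (1.57 to 1.67), where 12.7% of 7451 genes were higher and 2.99% lower, and Ccne1 stood at 0.02 (-0.08 to 0.11). In G1 barcodes 1 of 7 was higher, Ccnd2 at 1.28 (1.17 to 1.39), and 3 lower, Ccne2, Cdk6 and Ccnd1, where 9.73% and 8.46% of genes were. Ccnd1 rested there on the 106 UMIs of the WT DN4 γδ− G1 barcodes, in a library where 8 barcodes with few CD3 transcripts held 84 UMIs. Ccne1, under 10 CPM, stood at -1.27 (-1.75 to -0.76). In the B barcodes Ccnd2 stood at 1.0997 (0.45 to 1.79), an interval below the ratio over all thymocyte barcodes but one that held the ratios within both phase sets. Cdk6 stood there at -1.47 (-2.51 to -0.49) and Cdk4 at -0.71 (-1.37 to -0.06), and the part of these differences in the result was not tested.

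Lat-KO DN3 γδ− was set against WT DN3a, from which it differed in LAT and also in reporter, bead depletion and CD71 gate. None of 5 genes at 10 CPM was past 2-fold, where 2.80% of 8070 genes were higher and 0.620% lower. Cdk4 stood at 0.63 (0.60 to 0.67), Ccnd3 at 0.29 (0.25 to 0.34), Cdk6 at 0.24 (0.22 to 0.25), Ccnd2 at 0.18 (0.15 to 0.21) and Cdk2 at 0.03 (-0.13 to 0.20). The median of all genes was 0.24, with Cdk4 and Ccnd3 above it, Ccnd2 and Cdk2 below it, and Cdk6 level with it. The B barcodes had a Cdk4 log2 ratio of 0.83 (0.14 to 1.56), and TMM factors took off 0.17. Within phases none of 4 genes was past 2-fold in G1 barcodes, where 2.38% of genes were higher and 0.673% lower, and none of 7 in S or G2M barcodes, where 7.16% and 1.26% were.

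Lat-KO DN3 γδint relative to Lat-KO DN3 γδ− asked what a surface γδ TCR went with in the absence of LAT. Here 3 of 7 genes were higher past 2-fold and none lower, where 4.54% and 3.53% of 8347 genes were. Ccne1 stood at 2.46 (2.18 to 2.75), Ccne2 at 1.63 (1.40 to 1.86) and Cdk2 at 1.11 (0.96 to 1.27). Cdk4 stood at 0.79 (0.76 to 0.82), while Ccnd2 at -0.08 (-0.11 to -0.05), Ccnd3 at -0.03 (-0.08 to 0.02) and Cdk6 at -0.11 (-0.13 to -0.09) were nearly level. The E-type cyclins and Cdk2 were thus higher. So was the share called S or G2M among barcodes of at least 4000 UMIs, 37.3% against 9.76%. Within either phase set none of the genes at 10 CPM was past 2-fold, where 0.738% and 3.31% of genes were higher and lower in G1 barcodes and 0.680% and 3.58% in S or G2M barcodes, with Cdk2 at 0.31 (0.11 to 0.52) and Ccne1 at 0.96 (0.66 to 1.26) in the latter. In G1 barcodes Ccne1 at 1.73 (0.55 to 2.94) and Ccne2 at 1.20 (0.33 to 2.05) exceeded 2-fold but were under 10 CPM in both libraries, on 12 to 26 UMIs per library. In S or G2M barcodes the interval of Ccne2 included 0, at 0.15 (-0.09 to 0.39). Lat-KO DN3 γδint stood apart in ribosomal-protein UMIs, which took 18.2% in thymocytes and 19.8% in B barcodes, against 27.7% to 33.8% and 29.8% to 36.1% in the other libraries. Its B barcodes had log2 ratios of 1.70 (1.05 to 2.38) for Cdk6, 1.05 (0.55 to 1.56) for Ccnd2 and 0.82 (0.32 to 1.33) for Cdk4 against those of Lat-KO DN3 γδ−. The Cdk4 difference was thus matched in the B barcodes. T cell markers summed to 770 CPM in the B barcodes of Lat-KO DN3 γδint and to 354 CPM in those of Lat-KO DN3 γδ−. The part of thymocyte transcripts in these ratios was not tested. TMM factors took off 0.25, and Cdk2 was then at 0.87. The count of 3 was 0 with thinned barcodes and 1 with the mean of barcode CPM or at 20 CPM, where Ccne1 and Ccne2 kept ratios past 2-fold but were under the minimum. The share of all genes past 2-fold was not computed under these settings.

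Lat-KO DN3 γδint over WT DN3b γδ+ compared cells with a surface γδ TCR without and with LAT. In this pair 1 gene was higher past 2-fold, Cdk6 at 1.51 (1.49 to 1.53), and 2 were lower, Ccne1 at -1.23 (-1.36 to -1.10) and Ccne2 at -1.02 (-1.16 to -0.89), where 27.6% of 8404 genes were higher and 34.6% past 2-fold either way. Ccnd2 stood at 0.79 (0.76 to 0.82), Cdk4 at 0.42 (0.39 to 0.44), Ccnd3 at -0.01 (-0.05 to 0.03) and Cdk2 at -0.68 (-0.78 to -0.59). The median of all genes was 0.56, and TMM factors took off 0.74, which brought Cdk6 to 0.77, under 2-fold, turned Cdk4 to -0.33 and took Cdk2 to -1.43, past 2-fold. Cdk2 was past 2-fold also with DESeq2 size factors (-1.35), the mean of barcode CPM (-1.07) and thinned barcodes (-1.10). Among barcodes called S or G2M, Cdk6 alone was past 2-fold, at 1.09 (1.07 to 1.12), where 20.2% of genes were higher and 6.64% lower. Ccne1 was at -0.38 (-0.51 to -0.25) there and Ccne2 at -0.20 (-0.34 to -0.07). In G1 barcodes Cdk6 was past 2-fold as well, at 1.57 (1.51 to 1.63), and alone among 5 genes, where 27.1% were higher and 7.80% lower. Ccne1 at -2.81 (-3.73 to -1.97) and Ccne2 at -2.07 (-2.86 to -1.32) were under 10 CPM there and not counted. In the B barcodes Ccnd2 stood at 1.37 (0.78 to 1.99) and Cdk6 at 0.44 (-0.12 to 1.004). The Cdk6 share of CDK4/6 UMIs, which no scaling changes, was 64.8% against 46.2%.

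Within libraries the genes split by cell cycle phase. The E-type cyclins, Cdk2 and Cdk4 were higher in barcodes called S or G2M than in those called G1 in 7 of 7 libraries, and Ccnd2 was lower in 7 of 7. Ccne2 was past 2-fold in 7 of 7 libraries, and Ccne1 in all apart from WT DN3a, where it was under 10 CPM in both sets. Of all genes at 10 CPM, 7.14% were past 2-fold higher and 6.95% lower in WT DN3a, 5.38% and 7.09% for WT DN3b γδ−, 5.12% higher and 11.5% lower for WT DN4 γδ−, 4.70% and 3.54% for WT DN3b γδ+, and 8.32% and 4.80% for WT DN4 γδ+. For Lat-KO these were 5.46% and 3.68% in DN3 γδ− and 5.67% and 5.03% in DN3 γδint. The log2 ratio of S or G2M over G1 ranged from 1.71 (WT DN3b γδ−) to 5.49 (Lat-KO DN3 γδ−) for Ccne1, from 1.64 (WT DN4 γδ−) to 5.17 (Lat-KO DN3 γδ−) for Ccne2, and from 0.85 (WT DN4 γδ−) to 2.05 (Lat-KO DN3 γδ−) for Cdk2. It ranged from 0.45 to 0.94 for Cdk4 and from -1.32 (WT DN4 γδ−) to -0.22 (WT DN3a) for Ccnd2. Ccne2 was higher in S than in G2M barcodes, with intervals that did not overlap, in all libraries apart from WT DN3a. It stood for example at 56.9 against 17.3 CPM in WT DN3b γδ−, whereas in WT DN3a it stood at 22.1 (18.8 to 25.8) against 19.5 CPM (10.1 to 34.1), the latter on 12 UMIs.

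Cdk6 and Ccnd3 did not move one way. Cdk6 was lower in S or G2M barcodes in 6 libraries, with log2 ratios lowest at -0.78 (-0.82 to -0.74) in Lat-KO DN3 γδ− and nearest 0 at -0.25 (-0.31 to -0.18) in WT DN4 γδ−, and higher in WT DN4 γδ+, at 0.80 (0.74 to 0.86). Its levels there were 103 CPM in G1 and 179.9 CPM in S or G2M barcodes. Ccnd3 was higher in S or G2M barcodes of WT DN3b γδ− at 1.02 (0.92 to 1.12) and of WT DN4 γδ− at 0.58 (0.47 to 0.68), slightly higher in WT DN3a and DN3b γδ+ at 0.24 (0.15 to 0.33) and 0.22 (0.12 to 0.31), and lower in WT DN4 γδ+ at -0.57 (-0.62 to -0.51). In the Lat-KO libraries it stood at -0.09 (-0.17 to -0.00) in DN3 γδ− and 0.06 (-0.02 to 0.14) in DN3 γδint.

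**Figure D4:**
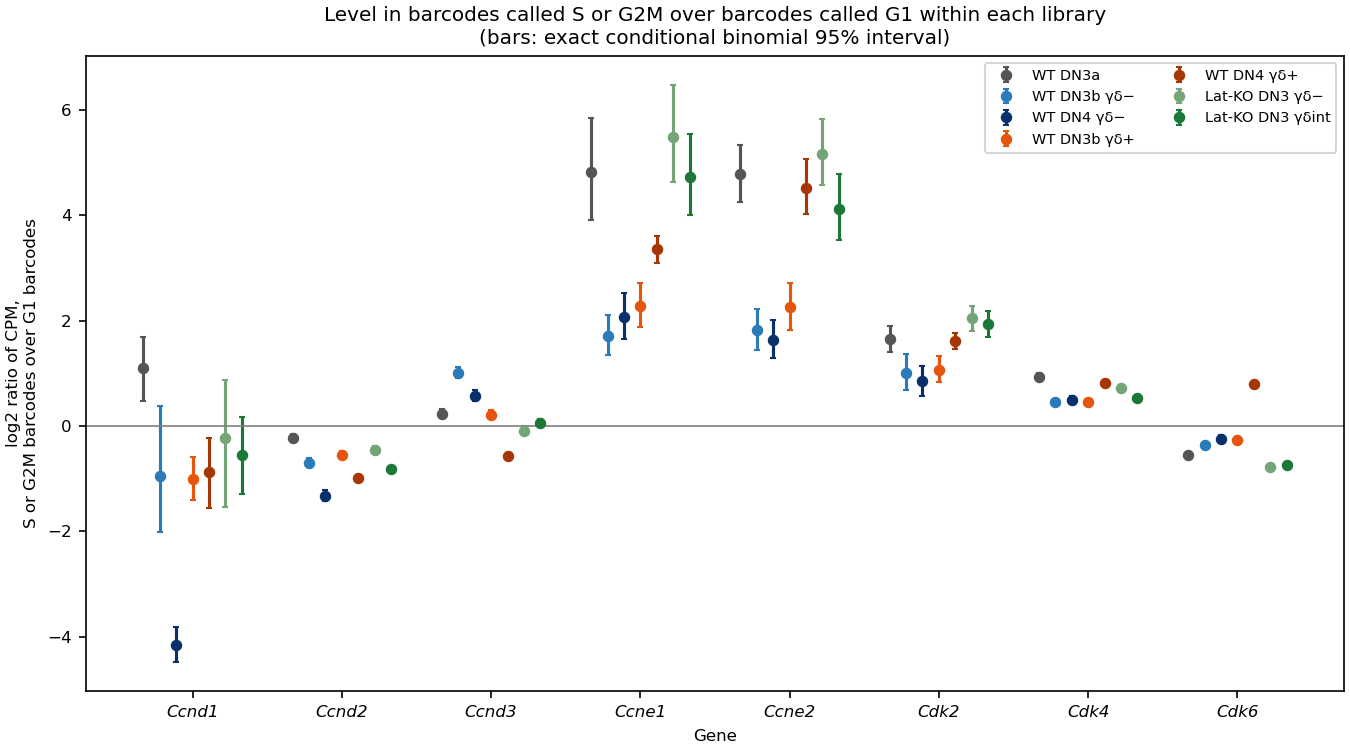
Log2 ratio of CPM in barcodes called S or G2M over barcodes called G1 for each of the 8 genes, with 1 point per library and exact conditional binomial 95% intervals for counting error as bars. Ccne1, Ccne2, Cdk2 and Cdk4 lay above 0 and Ccnd2 below 0 in all 7 libraries, while Cdk6 lay above 0 in WT DN4 γδ+ alone.

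The rest of the pathway was described by a list of 35 genes: inhibitors of the kinases, pocket proteins, E2F factors, activators, turnover genes, and the later cyclins with Cdk1. Of the 29 at 10 CPM, 14 were higher and 3 lower past 2-fold in WT DN3b γδ− over WT DN3a, and likewise 14 and 3 of 29 in WT DN3b γδ+ over WT DN3a, with medians of 0.86 and 0.85. Over all genes 10.4% were higher and 16.3% lower in the first, and 10.8% and 15.3% in the second. All 4 later genes (Ccna2, Ccnb1, Ccnb2 and Cdk1) were higher. Ccna2, the cyclin of S and G2, stood at 3.15 CPM in WT DN3a and at 146 and 123 CPM in the DN3b libraries. Of the E2F list, 5 of 8 were higher in each comparison and 0 and 1 lower, with the repressor E2f8 at 4.51 (4.16 to 4.89) and 4.65 (4.30 to 5.03).

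The inhibitors of the kinases did not move as a group. Cdkn1a, which encodes p21, stood at 89.6 CPM in WT DN3a, 8.76 CPM in WT DN3b γδ−, 5.16 CPM in WT DN4 γδ−, 7.96 CPM in WT DN3b γδ+, 0.788 CPM in WT DN4 γδ+, 112 CPM in Lat-KO DN3 γδ− and 78.5 CPM in Lat-KO DN3 γδint. It was thus high in WT DN3a and both Lat-KO libraries, the same 3 where Cdk6 and Ccnd2 were highest when scaled by totals. Cdkn1b, which encodes p27, stood at 113 CPM in WT DN3a, 37.8 and 44.0 CPM in WT DN3b γδ− and γδ+, 42.0 CPM in WT DN4 γδ−, 107 CPM in WT DN4 γδ+, and 89.6 and 102 CPM in the Lat-KO libraries. Cdkn2c, which encodes p18, an inhibitor of CDK4 and CDK6, was the only one of 27 listed genes past 2-fold between WT DN3b γδ+ and DN3b γδ−, at 60.03 against 26.6 CPM and a log2 ratio of 1.17 (1.13 to 1.21), where 5.14% of all genes were higher and 2.28% lower, so the count is near the background.

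In WT DN4 γδ− over WT DN3b γδ−, 0 of 27 listed genes were past 2-fold, where 0.542% of all genes were higher and 0.770% lower. In WT DN4 γδ+ over WT DN3b γδ+, 2 of 28 were higher, Rbl2 (a pocket protein of resting cells) at 1.69 (1.61 to 1.78) and Cdkn1b at 1.29 (1.24 to 1.33), and 7 lower, among them E2f1, an activator that pocket proteins restrain, at -1.66 (-1.75 to -1.57), where 11.8% of all genes were higher and 6.53% lower. WT DN4 γδ+ over WT DN4 γδ− had 3 higher and 8 lower of 28, where 19.7% of all genes were higher and 8.16% lower. Lat-KO DN3 γδ− over WT DN3a had 5 of 27 higher and none lower (2.80% and 0.620% of all genes), which were Ccnb2 at 3.10 (2.88 to 3.32), Ccna2, Ccnb1, Cdk1 and Skp2, a subunit of the ligase that degrades p27. The members at 10 CPM stayed under 2-fold in that comparison while these 5 genes were higher, with the 3 cyclins at 17.9 to 31.2 CPM in Lat-KO DN3 γδ−. WT DN3a was sorted against CD71, and no such gate is given for Lat-KO DN3 γδ−. Loss of LAT and the gate cannot be told apart here. Lat-KO DN3 γδint relative to Lat-KO DN3 γδ− had 9 of 29 higher and none lower (4.54% and 3.53% of all genes), with E2f8 at 2.23 (1.98 to 2.49). Lat-KO DN3 γδint over WT DN3b γδ+ had 6 higher and 3 lower of 29, where 27.6% of all genes were higher and 34.6% past 2-fold either way, with Cdkn1a at 3.30 (3.21 to 3.39) and Cks2, a small CDK subunit, at -2.48 (-2.54 to -2.42).

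For 7 members the 3 genes nearest in pattern over the 7 libraries were found among 6661 genes, by the root mean square difference of centred log2(CPM + 1). Nearest to Ccnd2 were Tcrg-C2 (0.15) and Tcrg-C1 (0.17), constant regions of the TCR γ chain, and Dock10 (0.21). Ccnd3 was nearest to Lmo4 (0.15), Gps2 and Ddx46. Ccne1 was nearest to E2f8 (0.20), Bub1 and Esco2, and Ccne2 to Cdc6 (0.18), Lig1 and Mcm10. Cdk2 was nearest to Mtx2 (0.11), Dbf4 and Ywhah. Cdk4 had the closest matches of all, Gps1 (0.05), Sae1 (0.06) and Eif6 (0.08), and Cdk6 the loosest first match, Tns3 (0.22), followed by Kcnk5 and Mfsd13a. These are likenesses over 7 points that share depth and composition, and carry no test.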

How the data were processed

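Single-cell 3′ RNA libraries (10x v3) of 7 sorted mouse thymocyte groups, 1 per group, were described with filtered UMI count matrices deposited by the authors. They were raw counts, made with Cell Ranger 5.0.1 per the labels and 4.0.0 in the file headers, on mm10 with an added Trdc reporter. Barcodes under 200 genes or above 15% mitochondrial UMIs were left out. Those with at most 1 UMI of Cd79a, Cd79b and Ms4a1 were thymocytes. Those with at least 10 were B cells if these exceeded 2-fold the UMIs of Cd3d, Cd3e, Cd3g, Ptcra, Lck and Thy1 together. Thymocytes also transcribe Cd79b, and 407 to 1357 barcodes per library exceeded the limit through Cd79b alone. No doublet caller was run. UMIs were summed per library and divided by their total to give CPM, with exact 95% intervals for CPM (Poisson), shares (Clopper-Pearson) and log2 ratios (conditional binomial). Ratios past 2-fold with at least 10 CPM in either library were counted, without a p-value, since groups held 1 library. Phases were ranges of 2 scores (41 S and 50 G2M genes, none of them a member or a gene of the pathway list). For shares, barcodes were thinned to 4000 or 2000 UMIs. The counting and interval steps were tested on simulated data. Members and gene lists were chosen with earlier results of these data known. The text names all 8 members, at most the 6 largest pathway ratios past 2-fold per comparison, the 3 genes nearest each member, and label checks. Alternatives covered scaling (edgeR 4.0.16 TMM, DESeq2 1.42.0), low-count filters, barcode rules, depth and phase. Python 3.11.15, scanpy 1.11.5, scipy 1.17.1 and R 4.3.3 were used. Positions are mm10, and promoters are RefSeq on GRCm38.p6.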

Additional observations from a re-analysis of the deposited data

Results flagged for a closer look

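From DN3b to DN4, Ccnd2 had a log2 ratio of -1.17 on the γδ− path and of 0.46 on the γδ+ path. Cdk2 went the other way, at 0.43 on the γδ− path and -0.75 on the γδ+ path. With 1 library per group these opposite directions were not tested. In the spiked B barcodes of the γδ+ libraries Ccnd2 had a log2 ratio of 0.95 (0.36 to 1.57), on 80 and 35 UMIs, with an interval that held the thymocyte ratio. In barcodes called S or G2M the γδ+ ratio was -0.21 for Ccnd2 and -0.02 for Cdk2, so that the opposite direction of Ccnd2 was not present within those phases. The mix of S and G2M differed between the 2 γδ+ libraries. Ccnd2 stood at 216 (DN4) and 233 CPM (DN3b) in S barcodes alone, and at 115 and 116 CPM in G2M barcodes. In barcodes called G1 the opposite directions were present, with Ccnd2 at -0.58 on the γδ− path and 0.23 on the γδ+ path, and Cdk2 at 0.60 and -0.56.

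The log2 ratio of S or G2M over G1 barcodes differed in direction between libraries for Ccnd3 and Cdk6. For Ccnd3 it was 0.24 for WT DN3a, 1.02 for WT DN3b γδ−, 0.58 for WT DN4 γδ− and 0.22 for WT DN3b γδ+, against -0.57 for WT DN4 γδ+ and -0.089 for Lat-KO DN3 γδ−. For Cdk6 it was -0.55 for WT DN3a, -0.37 for WT DN3b γδ−, -0.25 for WT DN4 γδ−, -0.26 for WT DN3b γδ+, -0.78 for Lat-KO DN3 γδ− and -0.73 for Lat-KO DN3 γδint, against 0.80 for WT DN4 γδ+. These differences between libraries were not tested.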

How the results depend on the processing

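No paired analysis was possible because each group held 1 library, and for the same reason no replicate could be left out. Of 25 log2 ratios past 2-fold, recomputed under 13 alternatives each, 323 of 325 values kept their sign and 290 stayed past 2-fold. Among the alternatives, 3 kept nearly all barcodes: a CD3 UMI required, no shared barcodes, and under 10 erythroid and myeloid UMIs. Each left all 72 log2 ratios within their main intervals, so these 3 say little about how far the results hold. The exceptions in sign came from barcodes called S or G2M, where Cdk2 stood at -0.045 in WT DN3b γδ− relative to WT DN3a and Ccne1 at 0.016 in WT DN4 γδ+ relative to WT DN4 γδ−. Among barcodes called G1, the members past 2-fold went from 7 to 2 in WT DN3b γδ− relative to WT DN3a, from 5 to 2 in WT DN3b γδ+ relative to WT DN3a, from 2 to 1 in WT DN4 γδ+ relative to WT DN3b γδ+, from 3 to 0 in Lat-KO DN3 γδint relative to Lat-KO DN3 γδ−, and from 3 to 1 in Lat-KO DN3 γδint relative to WT DN3b γδ+. In G1 the E-type cyclins mostly left these counts by being under 10 CPM in both libraries, with log2 ratios still past 2-fold, such as 4.69 for Ccne1 in WT DN3b γδ+ relative to WT DN3a and -2.83 for Ccne2 in WT DN4 γδ+ relative to WT DN3b γδ+. Among barcodes called S or G2M these counts were 3, 1, 0, 0 and 1 in the same order, and 1 in place of 4 in WT DN4 γδ+ relative to WT DN4 γδ−. For WT DN4 γδ+ relative to WT DN3b γδ+ the count of 2 became 5 with TMM factors, 4 with DESeq2 size factors, 4 with the mean of barcode CPM, 5 with thinned barcodes and 5 without the 8% deepest barcodes. For Lat-KO DN3 γδint relative to Lat-KO DN3 γδ− it became 1 at 20 CPM, 1 with the mean of barcode CPM and 0 with thinned barcodes, where Ccne1 and Ccne2 fell under the minimum with ratios past 2-fold (2.54 and 1.96 in thinned barcodes) and Cdk2 stood at 0.94 in thinned barcodes. With no CPM minimum Ccnd1 was counted, giving 1 in place of 0 in WT DN3b γδ+ relative to WT DN3b γδ− and in Lat-KO DN3 γδ− relative to WT DN3a, and 2 in place of 1 in WT DN4 γδ− relative to WT DN3b γδ−. It also gave 8 in place of 7 in WT DN3b γδ− relative to WT DN3a, 3 in place of 2 in WT DN4 γδ+ relative to WT DN3b γδ+, and 4 in place of 3 in Lat-KO DN3 γδint relative to WT DN3b γδ+. Apart from such changes of genes counted, the cause was not tested. Outside the main and phase sets, the share of all genes past 2-fold was not computed. The counts under the other alternatives therefore have no background beside them and are not read as results about the members. Leaving out the 8% deepest barcodes and not counting Cd79b were chosen after seeing the data. Depth limits Ccnd1, whose intervals reached 30.5% above the value.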
